A study of Rattus norvegicus with 36 samples.

Results

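The genes described here are the expressed long intergenic noncoding RNA (lincRNA) genes of the rat brain, measured in 4 regions 6 weeks after a blast exposure or a sham procedure. A gene was a member when the deposited annotation called it lincRNA and its mean raw read count over the libraries of a regional table was at least 100 in at least 1 of the 4 regional tables. This rule found 82 members among 2272 lincRNA genes and 26142 genes in any table. The members were thus chosen by mean raw counts per region, and sham levels between regions are given as a description, with no test. The difference between blast and sham was not used by the rule, and it was tested across all genes.

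The 36 libraries came from hippocampus (5 blast-exposed, 5 sham), amygdala (5 and 4), anterior cortex (3 and 5) and cerebellum (5 and 4) of Rattus norvegicus. All groups were taken 6 weeks after exposure. The labels used here give neither strain, sex and age of the rats nor the strength of the blast. The labels number the libraries, sham 10, 12, 13, 16 and 18 and blast 1, 2, 5, 6 and 9, but do not say that a number marks an animal. The p-values therefore measure only the spread between these libraries. In pieces of tissue, fewer cells of a type and less RNA per cell cannot be told apart.

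A lincRNA gene lies outside protein-coding genes and is transcribed, spliced and often kept in the nucleus, but encodes no known protein. Members of this class are known for scaffolding nuclear bodies such as speckles and paraspeckles, for recruiting chromatin regulators such as Polycomb complexes, and for acting on the gene beside them. In brain they are known for strong restriction to single regions and cell types. Most rat lincRNA genes carry no symbol: 66 members had only a name taken from a sequence contig (AABR or AC), 13 had a LOC name, and 3 had a symbol, which were Tug1, Kantr and Rfwd3. Tug1 is known as a widely expressed nuclear RNA whose gene stands back to back with Morc2, and Kantr as an RNA transcribed beside Kdm5c on the X chromosome.

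RefSeq (rat build GRCr8) matched 9 of the 82 members by symbol or gene number. It called 7 of these lncRNA and 2 protein-coding: Rfwd3, known as a ubiquitin ligase of DNA repair, and LOC103694491, which RefSeq names Smim10l2a. For these 2 members the lincRNA label of the deposited tables and the RefSeq class differ. The RefSeq promoter table held 7 of the members. The windows below, 250 bases before to 50 bases after the annotated start, are shown for the member that stood back to back with Lhx1 and was seen almost solely in cerebellum, and for Tug1 and Kantr, the members with a symbol and a known noncoding RNA. They lie on GRCr8 at chr10:69901719-69902018 on the plus strand (LOC102553190), chr14:82750485-82750784 on the minus strand (Tug1) and chrX:24909987-24910286 on the minus strand (Kantr). Capitals mark the CCAAT box (CCAAT or its reverse complement ATTGG).
LOC102553190: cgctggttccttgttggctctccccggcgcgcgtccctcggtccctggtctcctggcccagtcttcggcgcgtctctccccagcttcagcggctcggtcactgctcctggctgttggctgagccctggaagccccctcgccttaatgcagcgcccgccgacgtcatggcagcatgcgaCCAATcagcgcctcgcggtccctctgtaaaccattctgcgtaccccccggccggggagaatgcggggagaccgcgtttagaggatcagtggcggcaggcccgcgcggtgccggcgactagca
Tug1: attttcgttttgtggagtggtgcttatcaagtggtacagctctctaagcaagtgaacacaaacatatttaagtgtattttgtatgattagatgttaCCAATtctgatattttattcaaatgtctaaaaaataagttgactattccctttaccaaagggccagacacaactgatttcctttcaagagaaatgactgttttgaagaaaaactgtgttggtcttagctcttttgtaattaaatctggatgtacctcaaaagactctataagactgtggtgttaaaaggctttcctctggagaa
Kantr: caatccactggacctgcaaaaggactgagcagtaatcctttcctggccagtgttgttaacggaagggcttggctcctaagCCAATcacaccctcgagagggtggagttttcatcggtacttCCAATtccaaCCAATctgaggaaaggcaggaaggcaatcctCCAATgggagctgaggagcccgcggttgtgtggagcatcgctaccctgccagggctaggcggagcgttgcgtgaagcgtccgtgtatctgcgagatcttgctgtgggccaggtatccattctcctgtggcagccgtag

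The LOC102553190 window held 32 CpG dinucleotides, more than 91.6% of all 33469 RefSeq promoter windows, and the Tug1 window held 1, more than 5.47% of them. The Kantr window held 13 CpG dinucleotides and 4 CCAAT boxes, while LOC102553190 and Tug1 each held 1 CCAAT box. A CCAAT box on either strand was present in 37.5% of all windows. None of the 3 windows held a GC box (GGGCGG or CCGCCC, in 33.1% of windows), a full CRE (TGACGTCA, in 1.83%) or a CACGTG E-box (in 6.42%). LOC102553190 held the shorter CRE core TGACG or its complement CGTCA once, as did 21.2% of windows. These letter matches describe the windows only. The windows follow the RefSeq start, and whether transcription in these tissues begins there was not tested.

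Several properties of the members were not used by the rule. They lay on 20 chromosomes, and 12 of the 82 (14.6%) were on the X chromosome, where 66 of all 2272 lincRNA genes (2.9%) were annotated. The summed exon lengths ran from 254 to 5614 bases with a median of 1709 bases. A protein-coding gene overlapped 5 members, on the same strand in 4 and on the opposite strand in 1, and a further 20 members lay within 5000 bases of a protein-coding gene without overlap. Within 5000 bases, 7 members started back to back with a gene of the opposite strand: Tug1 with Morc2, LOC102553190 with Lhx1, AABR07035273.1 with Pan3, AABR07045680.1 with Cd99, AABR07062033.1 with Cd27, LOC102550543 with Camsap1 and LOC100909912 with Ncoa3. AC111804.2 and AABR07038849.1 started downstream of a gene on the same strand within that distance, Egr3 and Pcyt1b. Counts of members that overlap or closely follow another gene are uncertain, because the labels do not say whether reads were counted by strand.

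The count threshold separated neighbours by small amounts. The 3 members just inside it had highest regional means of 100.3 (LOC102547817), 102.56 (AABR07030473.1) and 104.33 counts (Kantr). The 3 lincRNA genes just outside had 99.56 (AABR07072264.4), 98.0 (AABR07027910.1) and 96.44 counts (AABR07056953.1). All 82 members were listed in all 4 tables, 39 reached the threshold in all 4 and 25 in a single table. Of those 25, 18 reached it in cerebellum only, 5 in hippocampus only, 2 in amygdala only and 0 in anterior cortex only. The 2190 other lincRNA genes had a median highest regional mean of 1 count, against 244.2 counts for the members.

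Libraries held 15426786 to 23460322 counts on genes. In sham, single markers of cerebellum and hippocampus were highest where the label placed them. These were Gabra6 (912 ± 54.7 CPM, SD, n = 4, against a mean of at most 0.491 elsewhere) and Prox1 (145 ± 23.8 CPM, n = 5). Tbr1 was highest in anterior cortex (67.9 ± 9.74 CPM, n = 5), with means of 45.7 in amygdala and 37.5 in hippocampus. The cortex list summed to 298 to 356 CPM in anterior cortex and 166 to 181 CPM in amygdala. Fezf2 of that list did not follow, at 20.7 CPM in anterior cortex and 22.9 CPM in hippocampus. The amygdala list was not highest in amygdala. Here CPM are counts scaled to library size, with TMM factors over all 36 libraries together. Several libraries stood apart in marker sums. Hippocampus blast 6, whose title carries the addition "re", had an oligodendrocyte sum of 23140 CPM against 7301 to 10250 in sham and an excitatory neuron sum of 2674 CPM against 4752 to 5325. It was the highest or lowest of the 10 hippocampal libraries for 26.4% and 26.7% of all genes tested, and for 14 and 26 of the 75 members tested. Amygdala blast 6 had a cortex marker sum of 321 CPM against 166 to 181 CPM in sham. Choroid plexus markers, led by Ttr, summed to 8607 CPM in hippocampus blast 6 and 2824 CPM in hippocampus blast 2, against 14.1 to 547 CPM in sham. They summed to 1963 CPM in amygdala blast 9, against at most 31.6 CPM in every other amygdala library, and varied from 31.8 to 2690 CPM among cerebellar libraries.

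Per length, a few members far exceeded the others. On the deposited FPKM scale the mean over the 18 sham libraries was 1124 ± 397 (SD) for AABR07065531.26, followed by 356 ± 151 for AC134224.3, 164 ± 37.3 for AC134224.2 and 153 ± 30.0 for AC134224.1. The fifth, AABR07070131.1, 478 bases from the cell adhesion gene Ncam1, had 53.9 ± 15.7 FPKM. Places 6 to 10 were AABR07027407.1 (43.7), AABR07017145.2 (37.3, 30996 bases from the forebrain transcription factor gene Fezf2), AABR07072236.1 (34.4), LOC102549726 (28.3) and AABR07045680.1 (25.8 FPKM). AABR07017145.2 was not restricted to forebrain, with sham means of 63.2 CPM in cerebellum and 90.4 in hippocampus. Fezf2 had 0.0119 and 22.9 CPM there. Tug1 ranked 22 at 15.1 ± 2.91 FPKM and Kantr ranked 27 at 9.48 ± 3.71 FPKM. The 4 leading members thus belonged to 2 loci.

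AABR07065531.26 (chr6:133667975-133676907, plus strand, coordinates of the deposited tables, whose build is not named) lay beside Dlk1, an imprinted growth regulator. In RefSeq the interval between Dlk1 and Rtl1 holds the lncRNA gene Meg3 and several miRNA genes, but the deposited tables give this member no such name and RefSeq gave it no match. Its sham CPM were 967, 790, 834 and 1003 in amygdala, 587, 519, 561, 621 and 648 in hippocampus, 661, 667, 613, 593 and 588 in anterior cortex, and 285, 255, 342 and 332 in cerebellum. Every amygdala library was above all other sham libraries and every cerebellar library below them, while hippocampus and anterior cortex overlapped. In FPKM the sham means were 1737 ± 165 in amygdala, 1085 ± 85.9 in hippocampus, 1075 ± 42.8 in anterior cortex and 619 ± 77.4 in cerebellum.

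AC134224.2, AC134224.1 and AC134224.3 (chr1:221151827-221158792 from end to end, minus strand) followed each other with gaps of 1283 and 1188 bases. AC134224.1 had mean sham levels of 400 ± 99.6 CPM in amygdala, 392 ± 47.7 in anterior cortex, 335 ± 56.1 in hippocampus and 319 ± 69.3 in cerebellum, which overlapped in every pair of regions. AC134224.2 was as even, at 107 to 133 CPM. AC134224.3 had 363 ± 150 CPM in anterior cortex and 170 ± 45.9 in cerebellum, with the largest SD relative to its mean of the 3 genes in every region.

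Among the 82 members, 20 (24.4%) had every cerebellar sham library above every sham library of the other regions, where 19% of all genes tested did so. Every cerebellar library was below them for 23 members (28%), against 17.4% of all genes. Hippocampus stood above all others for 7 members (8.54%, against 4.91% of genes), amygdala for 3 (3.66%, against 2.07%) and anterior cortex for 1 (1.22%, against 4.99%). Hippocampus stood below all others for 1 member, AABR07050265.1 (1.22%, against 2.72%), amygdala for 0 (against 1.45%) and anterior cortex for 0 (against 2.92%). The highest mean was in cerebellum for 30 members (37.4% of all genes), in hippocampus for 21 (20.9%), in amygdala for 16 (16.7%) and in anterior cortex for 15 (24.9%). Since raw counts per region chose the members, nothing is read from these shares.

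**Figure D1:**
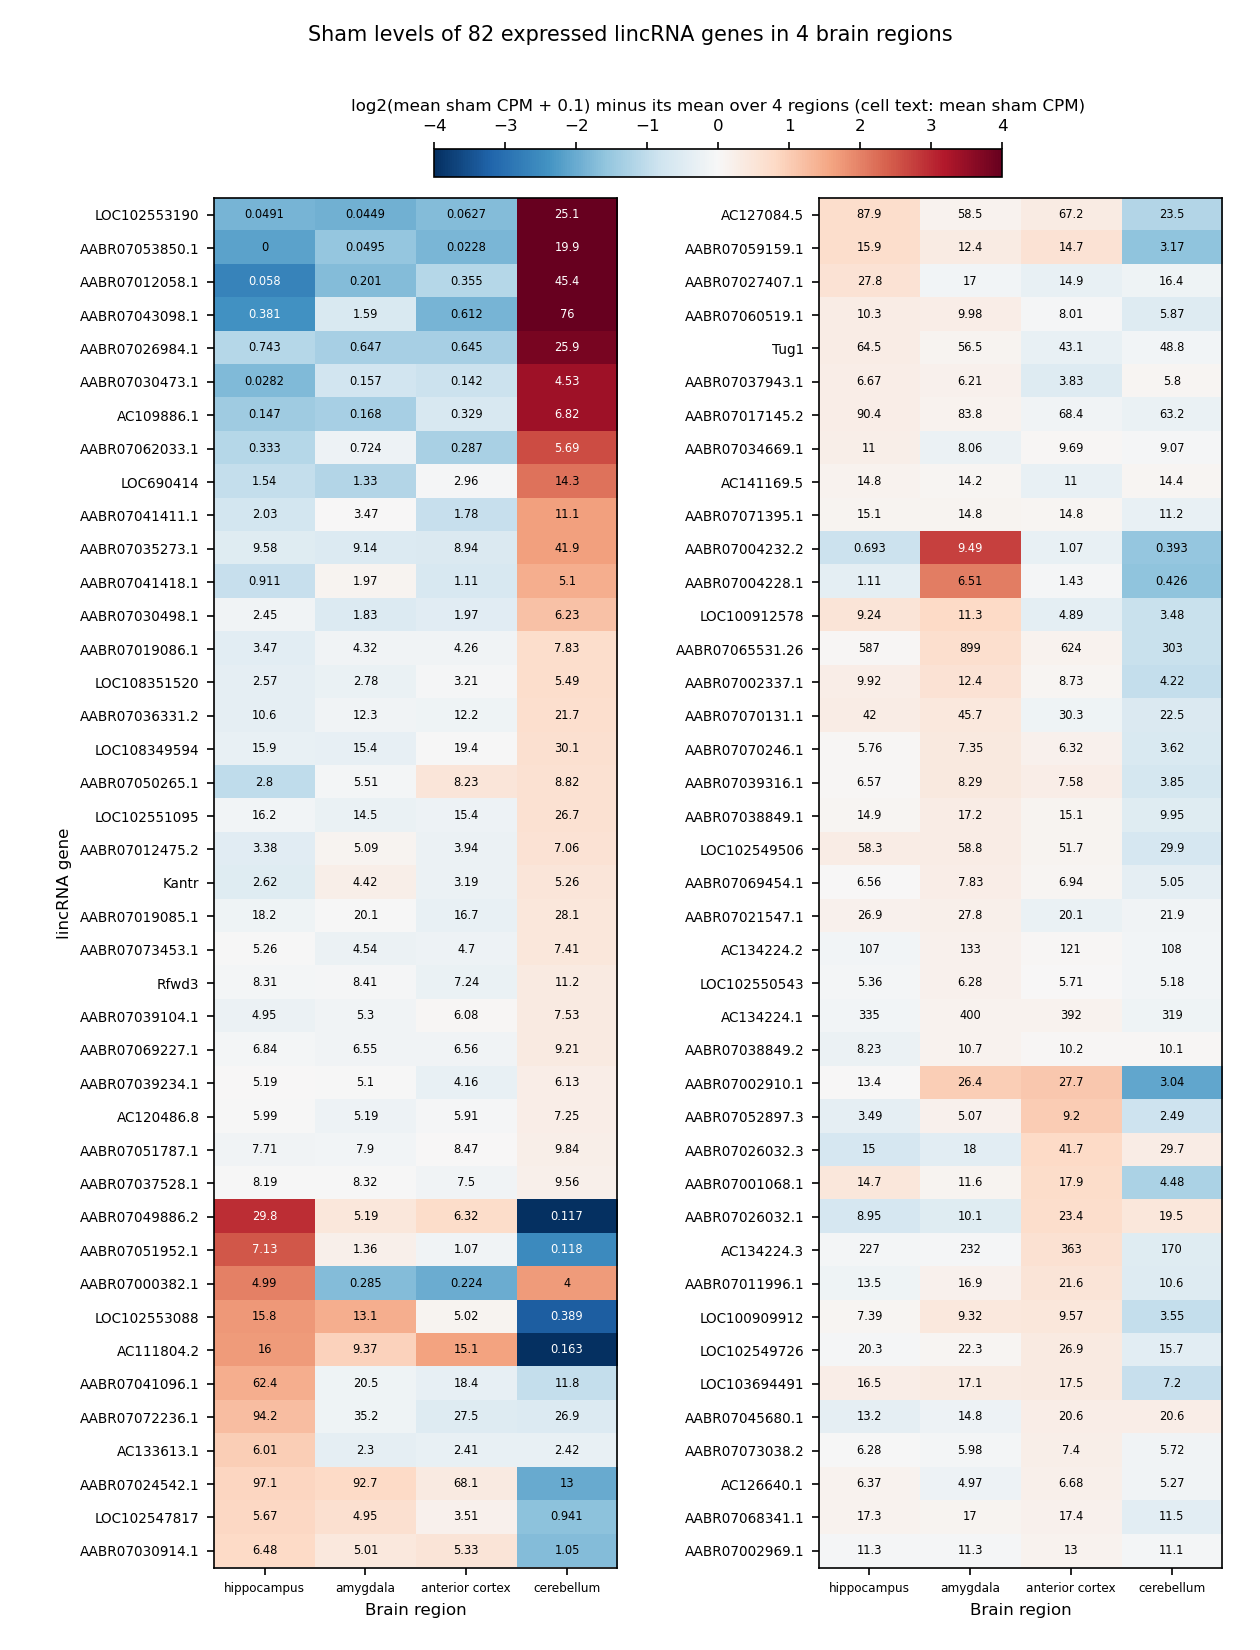
Mean sham level of each of the 82 members (rows) in 4 brain regions (columns, 4 or 5 libraries each). The text in each cell is the mean sham CPM and its colour is log2(mean sham CPM + 0.1) minus the average of the 4 regions, so the first rows of the left panel hold members seen almost solely in cerebellum, such as LOC102553190 at 25.1 CPM against at most 0.0627 elsewhere.

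LOC102553190 (chr10:71850138-71860461, plus strand), whose RefSeq synonym is Lhx1os and whose promoter window is printed above, had sham levels of 25.0, 26.0, 24.1 and 25.2 CPM in cerebellum. Its summed sham counts were 5 in hippocampus, 3 in amygdala and 5 in anterior cortex. Lhx1, a LIM homeobox transcription factor known from Purkinje cells, begins 845 bases away on the opposite strand. Its sham levels were 37.6, 30.2, 37.2 and 37.3 CPM in cerebellum and at most 0.195 CPM in any sham library elsewhere. Both genes were highest among the hippocampal libraries in blast 6, at 0.856 CPM for the lincRNA and 0.685 CPM for Lhx1.

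AABR07053850.1 (chr3:130961803-130965743, plus strand), 385844 bases from Btbd3, had 17.8, 22.4, 20.3 and 19.1 CPM in cerebellum. No read was counted in the 5 hippocampal sham libraries, which makes cerebellum at least 705-fold higher against a floor of 3 counts over the group. Amygdala held 4 counts and anterior cortex 2, and the ratio of cerebellum to anterior cortex was 1017 (95% Poisson interval of the lower count, 282 to 8397, counting error only). AABR07012058.1 (chr2:184409306-184449404, plus strand) had 42.2, 42.0, 49.8 and 47.6 CPM in cerebellum and at most 0.478 CPM in any other sham library. Its nearest protein-coding gene was Fbxw7, 99642 bases away.

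AABR07043098.1 (chr19:20559528-20568309, minus strand) was the fifth member by level per length in sham cerebellum, at 103 ± 4.23 FPKM (SD, n = 4). Its levels there were 74.8, 72.2, 75.8 and 81.1 CPM, against 0.047 to 2.48 CPM in the sham libraries of the other regions. Amygdala was the next highest at 1.59 CPM on average. Cbln1, which encodes the cerebellin that granule cells release to hold parallel fibre synapses, lay 39198 bases away and had a mean of 984 CPM in cerebellum, 15.2 in amygdala, 4.24 in anterior cortex and 2.54 in hippocampus. The order of the 4 regional means was the same for the lincRNA and for Cbln1. Outside cerebellum the sham libraries of the lincRNA overlapped between anterior cortex and the others. They had 0.047 to 0.803 CPM in hippocampus, 0.207 to 1.43 CPM in anterior cortex and 0.890 to 2.48 CPM in amygdala.

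AABR07035273.1, 420 bases from Pan3 and back to back with it, was expressed everywhere but highest in cerebellum, at 46.9, 42.5, 40.5 and 37.9 CPM against 7.64 to 10.5 CPM in the other sham libraries. Pan3, a subunit of the deadenylase that trims poly(A) tails, had 164.5 CPM in cerebellum and 33.0 to 35.9 CPM elsewhere. AABR07030473.1, 16014 bases from Zfp385c, had 4.53 CPM in cerebellum and at most 0.157 CPM elsewhere on average, and Zfp385c had 40.3 against at most 0.651 CPM. AABR07026984.1 had 25.9 CPM in cerebellum and 0.645 to 0.743 CPM elsewhere, while its neighbour Tgfbi, 9322 bases away, ranged only from 5.64 to 8.76 CPM.

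In hippocampus the largest ratios to the next region belonged to AABR07051952.1, AABR07049886.2 and AABR07041096.1. AABR07051952.1, 46922 bases from the transcription factor gene Zeb2, had 7.06, 5.85, 6.59, 8.99 and 7.16 CPM in hippocampus and at most 1.91 CPM in any other sham library. Zeb2 itself was highest in hippocampus, with 185 CPM against 44.7 to 97.0 CPM. AABR07049886.2 (chr5:142508486-142511865, minus strand) had 30.4, 26.8, 34.1, 22.2 and 35.4 CPM in hippocampus, against means of 6.32 in anterior cortex, 5.19 in amygdala and 0.117 in cerebellum. The X-linked AABR07041096.1 had 56.3, 77.5, 63.1, 63.8 and 51.6 CPM in hippocampus, and 20.5, 18.4 and 11.8 CPM on average in amygdala, anterior cortex and cerebellum. AABR07072236.1, which overlaps Gramd1c on the opposite strand, had 94.2 ± 9.98 CPM in hippocampus and 26.9 to 35.2 CPM elsewhere. Gramd1c did not follow it, at 8.21 CPM in hippocampus and 8.37 in amygdala.

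Amygdala was highest by the largest ratio for AABR07004232.2 and AABR07004228.1, which lie on chromosome 1. AABR07004232.2 had 8.59, 9.13, 9.94 and 10.3 CPM in sham amygdala and at most 1.6 CPM in the other sham libraries. AABR07004228.1 had 5.66, 5.83, 6.54 and 8.01 CPM, and at most 2.03 CPM elsewhere. Its nearest protein-coding gene, 16499 bases away, was Nr2f2, the nuclear receptor COUP-TFII known from amygdala and interneurons, with 87.5, 75.3, 77.4 and 90.0 CPM in sham amygdala and at most 17.5 CPM elsewhere. In amygdala blast 6, the library with the high cortex marker sum, AABR07004232.2 stood at 1.63, AABR07004228.1 at 1.68 and Nr2f2 at 23.2 CPM, below every other amygdala library.

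AC111804.2 (chr15:51761603-51762080, plus strand) lay 881 bases beyond Egr3, a zinc finger immediate early gene that neuronal activity induces, on the same strand. Its sham levels were 17.9, 17.4, 14.9, 14.1 and 15.9 CPM in hippocampus, 12.7, 15.3, 12.7, 17.5 and 17.2 in anterior cortex, 9.07, 9.86, 8.37 and 10.2 in amygdala and at most 0.285 in cerebellum. Egr3 had the same order, with mean sham levels of 82.1, 74.5, 43.3 and 0.435 CPM in those regions. In hippocampus blast 6 both were lowest of all hippocampal libraries, at 6.45 CPM for AC111804.2 and 35.2 CPM for Egr3. Whether these reads continue from the Egr3 transcript was not tested.

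**Figure D2:**
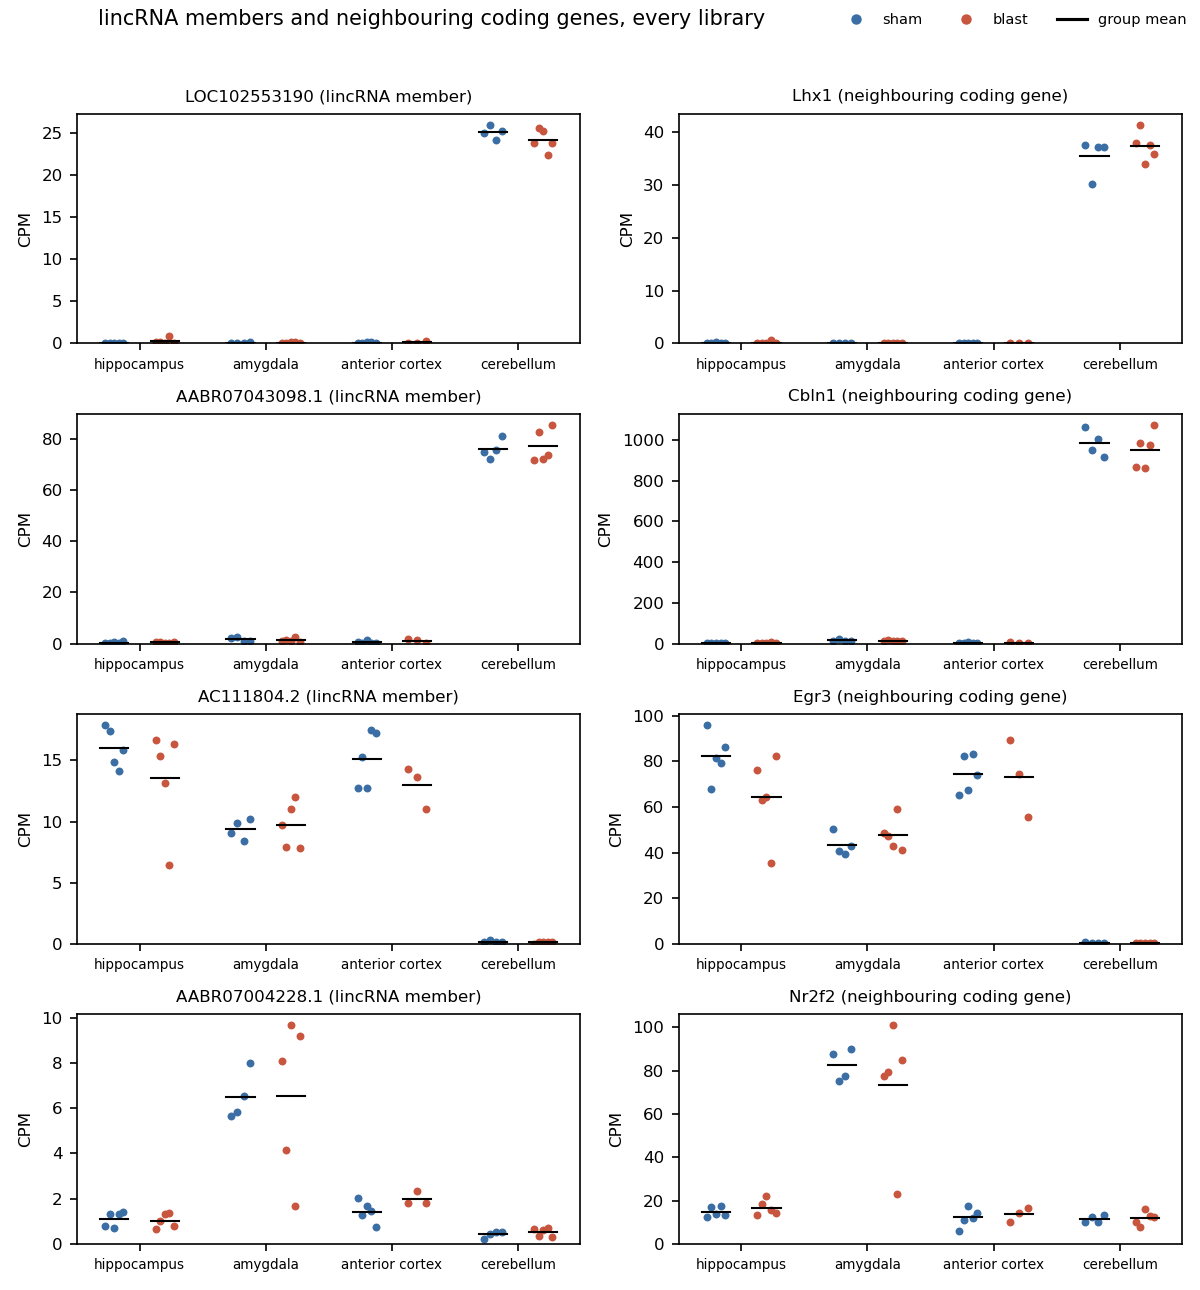
Level in CPM of 4 lincRNA members (left) and their neighbouring protein-coding genes (right) in every sham and blast library of 4 regions. Points are libraries and bars are group means. LOC102553190 and Lhx1, and AABR07043098.1 and Cbln1, are near 0 outside cerebellum, and AABR07004228.1 and Nr2f2 share a low amygdala blast library at 1.68 and 23.2 CPM.

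Anterior cortex was highest by the largest ratio for AABR07052897.3, with 8.39, 11, 6.85, 9.97 and 9.78 CPM against at most 6.00 CPM in the other sham libraries. It lay 4289 bases from Hsd17b12, whose mean sham level was highest in cerebellum, at 72.2 CPM. The adjacent members AABR07026032.3 and AABR07026032.1 on chromosome 16 were both highest in anterior cortex and next in cerebellum, at 41.7 and 29.7 CPM for the former and 23.4 and 19.5 CPM for the latter. Arhgap33, 462 bases from AABR07002910.1, had the region order of that lincRNA: 305 and 27.7 CPM in anterior cortex, 299 and 26.4 in amygdala, 189 and 13.4 in hippocampus, and 47.7 and 3.04 in cerebellum.

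Over all members with a measured protein-coding neighbour, the neighbour was highest in the same region as the lincRNA for 20 of 29 members highest in cerebellum, where 37.5% of all protein-coding genes were highest in cerebellum. For hippocampus it was 7 of 19 (21.1% of protein-coding genes), for amygdala 8 of 15 (16.2%) and for anterior cortex 8 of 14 (25.2%). Some members share a neighbour, so these are not independent counts. Of the 29 members highest in cerebellum, 18 reached the count threshold there only, and these hold 13 of the 20 matches. Members that reached it in hippocampus only or in amygdala only are likewise among the matches of those regions. Some matching neighbours were near 0, such as AABR07004232.1 at 0.31 CPM in amygdala. The shares cover genes that passed the low-count filter, which the neighbours did not have to pass. Nothing is therefore read from the counts of any region.

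Tug1 and Kantr were present in all 4 regions. Tug1 had 66.8, 59.8, 63.2, 68.4 and 64.3 CPM in sham hippocampus, 57.6, 63.2, 50.5 and 54.7 in amygdala, 50.3, 48.4, 45.3 and 51.1 in cerebellum, and 47.6, 47.2, 41.4, 36 and 43.5 in anterior cortex. Hippocampus and amygdala overlapped, as did amygdala with cerebellum and anterior cortex with cerebellum. Kantr had its highest mean in cerebellum, 5.26 ± 0.721 CPM, overlapping amygdala at 4.42 ± 0.481 CPM, and its lowest in hippocampus, 2.62 ± 0.867 CPM. Morc2, back to back with Tug1 at 1505 bases, ranged from 44.5 to 55.3 CPM.

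Most members were steady among sham libraries of a region. Over the 294 pairs of a member and a region with a mean of at least 1 CPM, the highest sham library was at the median 1.40 times the lowest, and the ratio passed 5 in 8 pairs. Those 8 pairs belonged to 3 members, AABR07000382.1, LOC100912578 and LOC690414. LOC100912578, on chromosome 3 with the olfactory receptor gene Olr442 as its nearest protein-coding gene 1407564 bases away, had 20.03, 0.708, 14, 9.96 and 1.47 CPM in hippocampus sham 10, 12, 13, 16 and 18. The same numbers had 0.813, 2.71, 11.4, 2.48 and 7.10 CPM in anterior cortex. Sham 13 was among the high libraries there, in hippocampus and in cerebellum (9.75 CPM), but had 2.27 CPM in amygdala, while sham 10 was high in hippocampus and low in anterior cortex. Blast 2 was high in all 3 regions it had, at 25.4, 24.1 and 25.1 CPM in hippocampus, amygdala and cerebellum.

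AABR07000382.1 (chr1:11766992-11772215, plus strand) was either near 0 or at 7.76 to 15.4 CPM. The high libraries were hippocampus sham 10 (13.6), hippocampus sham 12 (11.1), hippocampus blast 1 (8.19), blast 6 (7.76) and blast 9 (9.87), anterior cortex blast 1 (10.8) and cerebellum sham 18 (15.4 CPM). In every other library it was at most 0.525 CPM. High libraries occurred in sham and in blast groups, and only number 1 was high in more than 1 region.

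**Figure D3:**
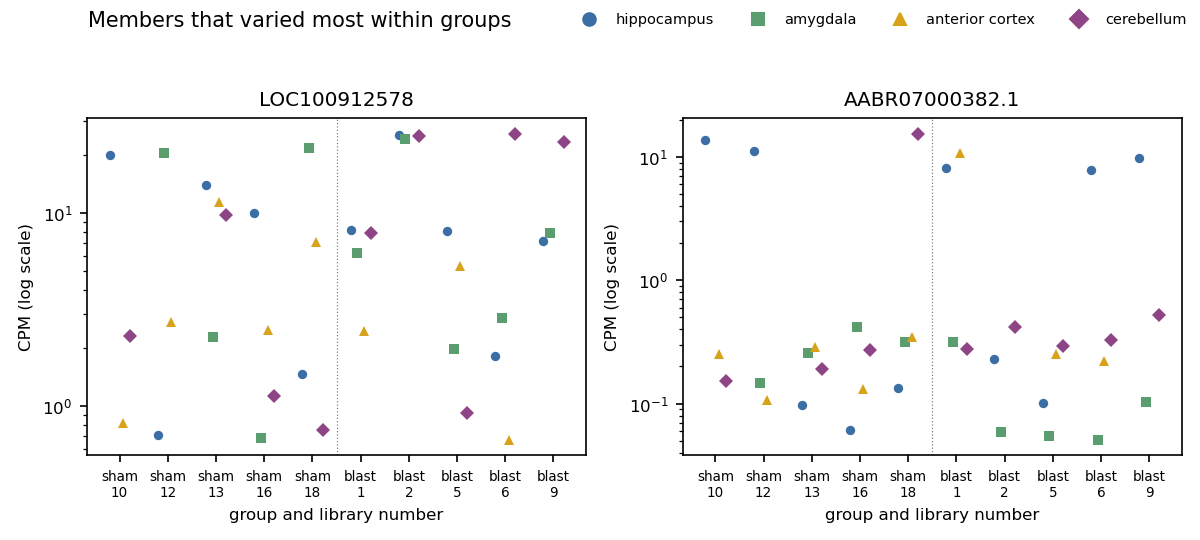
Level (CPM, log scale) of LOC100912578 and AABR07000382.1 by library number, with sham numbers left and blast numbers right of the dotted line and 1 symbol per region. LOC100912578 spreads from 0.670 to 25.7 CPM, and AABR07000382.1 has 7 libraries above 7 CPM with the rest at or below 0.525 CPM.

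Blast was then compared with sham in each region by edgeR's quasi-likelihood test on the counts of all genes, with Benjamini-Hochberg adjustment over all genes tested. The low-count filter kept 77 of the 82 members in cerebellum, 76 in amygdala, and 75 each in hippocampus and anterior cortex. No member passed an adjusted p of 0.05 in any region, by edgeR or by DESeq2. Over all genes edgeR called 0 (0.0%) in hippocampus, amygdala and cerebellum and 1 (0.00634%) in anterior cortex, and DESeq2 called 1 (0.00426%), 8 (0.0337%), 12 (0.0714%) and 32 (0.186%) in hippocampus, amygdala, anterior cortex and cerebellum. The smallest adjusted p of a member was 0.590 in cerebellum, 0.816 in hippocampus, 0.842 in anterior cortex and 0.901 in amygdala by edgeR.

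At an unadjusted p under 0.05, without correction, edgeR gave 1 of 75 members in hippocampus (1.33%, against 5.24% of all genes), which was lower in blast (1.28% of genes were lower and 3.97% higher). In amygdala it gave 3 of 76 (3.95%, against 5.22%), 2 higher and 1 lower (2.8% and 2.42% of genes). In anterior cortex it gave 9 of 75 (12%, against 5.82%), 3 higher and 6 lower (2.43% and 3.39% of genes). In cerebellum it gave 8 of 77 (10.4%, against 6.82%), 6 higher and 2 lower (3.55% and 3.26% of genes). With each library left out in turn these were 6 to 10 members in anterior cortex, 5 to 9 in cerebellum, 1 to 5 in amygdala and 1 to 8 in hippocampus, and the 8 came without hippocampus blast 1. The median log2 difference was -0.05 over the 75 hippocampal members and -0.02 over the 76 of amygdala. It was -0.09 over the 75 of anterior cortex and 0.05 over the 77 of cerebellum, and the median of all genes was 0.00 in each. Differences under 0.5 on the log2 scale were found for 73, 76, 67 and 70 of those members.

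**Figure D4:**
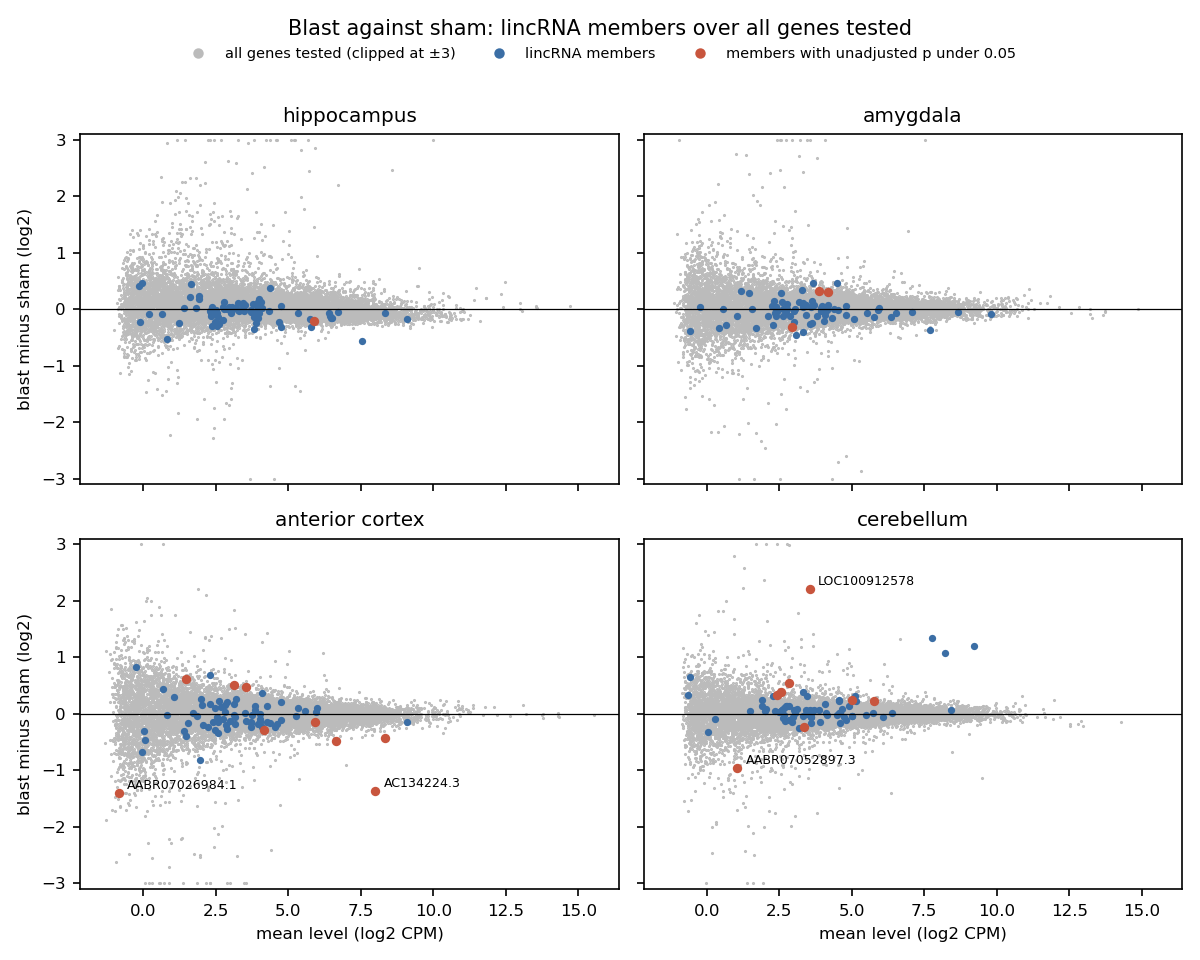
Blast minus sham on the log2 scale against mean level (log2 CPM) in each region, with all genes tested in grey, members in blue and members with an unadjusted p under 0.05 in red. No member passed the adjusted threshold. In cerebellum the 3 blue points above 1 at high level are AC134224.1, AC134224.2 and AC134224.3, whose difference rests on blast 1.

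These 3 adjacent AC134224 genes gave the smallest p-values of the members in anterior cortex. AC134224.3 had 462, 506, 177, 444 and 225 CPM in sham 10, 12, 13, 16 and 18, and 177, 115 and 132 CPM in blast 1, 5 and 6. The groups met at sham 13 (176.6 CPM) and blast 1 (176.9 CPM). The log2 difference was -1.37 (SE 0.32), with an adjusted p of 0.842 by edgeR (0.277 to 0.955 with each library left out) and 0.209 by DESeq2. In hippocampus it differed by -0.55 (SE 0.26), with an adjusted p of 0.816. In the authors' own test the same gene was the only member with an adjusted p under 0.05 in any region. By that test it had an adjusted p of 0.01075 and a log2 fold change of -0.46. These values are not set against a regional edgeR value here. In anterior cortex AC134224.1 differed by -0.43 (SE 0.13) and AC134224.2 by -0.48 (SE 0.17). Both had an adjusted p of 0.842 by edgeR, and their groups overlapped.

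The 3 genes of this locus did not keep a fixed ratio. In anterior cortex the count of AC134224.3 divided by that of AC134224.1 was 1.34, 1.43, 0.467, 0.989 and 0.516 in sham 10, 12, 13, 16 and 18, and 0.512, 0.502 and 0.437 in blast 1, 5 and 6. In hippocampus it was 0.699, 0.898, 0.513, 0.749 and 0.472 in the same sham numbers, and 0.441 to 0.524 in the 5 blast libraries. In amygdala sham 12, 13, 16 and 18 had 0.663, 0.457, 0.660 and 0.483, and blast libraries 0.446 to 0.522. In cerebellum sham 10, 13, 16 and 18 had 0.543, 0.497, 0.564 and 0.512, and blast libraries 0.469 to 0.523. Sham 10, 12 and 16 were above sham 13 and 18 wherever they were measured, while sham 13 and 18 lay inside the blast range of their region except sham 18 in anterior cortex, just above it. The ratio of AC134224.2 to AC134224.1 did not divide the libraries in this way, at 0.305 to 0.319 in sham and 0.273 to 0.333 in blast anterior cortex. Why the 5′-most of the 3 genes varied by library number was not tested.

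In cerebellum the same locus was raised in a single library. AC134224.1 had 2212 CPM in blast 1, against 269, 492, 342 and 331 CPM in blast 2, 5, 6 and 9 and 322, 296, 412 and 246 CPM in sham 10, 13, 16 and 18. AC134224.2 had 891 CPM there against 77.7 to 151 in the other cerebellar libraries, and AC134224.3 had 1038 CPM against 126 to 257. Without blast 1 the log2 differences of AC134224.1, AC134224.2 and AC134224.3 were 0.17 (SE 0.19), 0.15 (SE 0.18) and 0.13 (SE 0.21), with adjusted p of 0.931, 0.937 and 0.952 by edgeR. Cerebellum blast 1 was the highest cerebellar library for 13.8% of all genes and for 14 of the 77 members, the most members of any cerebellar library. Its granule cell sum of 2948 CPM lay within the sham range of 2794 to 3100 CPM. Its astrocyte sum of 3578 CPM and oligodendrocyte sum of 6610 CPM were the lowest of the 9 cerebellar libraries, where sham had 3762 to 4119 and 7431 to 7894 CPM. The part of these sums in the result was not tested.

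**Figure D5:**
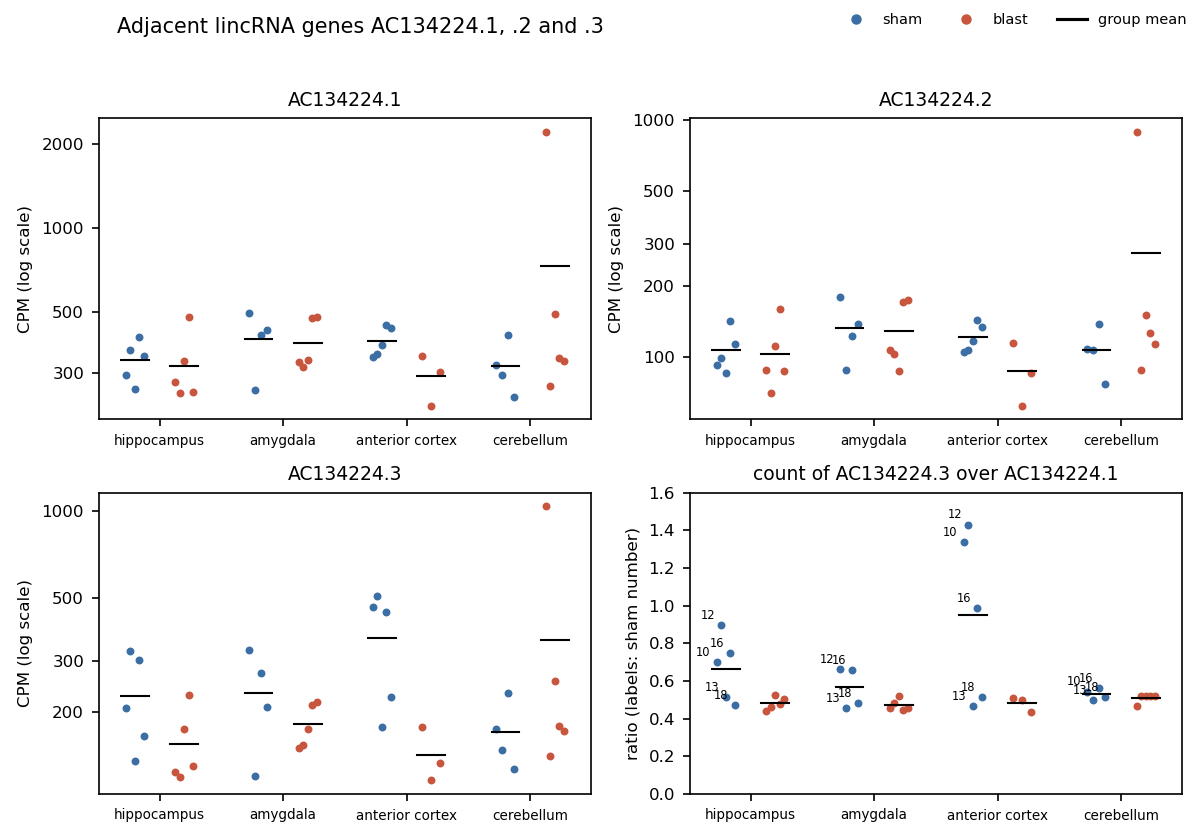
Level (CPM, log scale) of the 3 adjacent AC134224 members in every sham and blast library, and the count ratio of AC134224.3 to AC134224.1 with each sham library labelled by its number. Points are libraries and bars are group means. Cerebellum blast 1 stands alone at 2212, 891 and 1038 CPM, and sham 10, 12 and 16 have the highest ratios, up to 1.43 in anterior cortex.

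Other members with the smallest p-values had small or scattered differences. In hippocampus Tug1 had 58.4, 55.3, 60.0, 46.0 and 60.2 CPM in blast 1, 2, 5, 6 and 9 against 59.8 to 68.4 CPM in sham, a log2 difference of -0.21 (SE 0.08) with an adjusted p of 0.816 by edgeR. Without blast 6 the difference was -0.14 (SE 0.06), with an adjusted p of 0.999. In amygdala, anterior cortex and cerebellum Tug1 differed by -0.14 (SE 0.08), 0.10 (SE 0.10) and 0.02 (SE 0.05). Among members higher after blast in hippocampus, the smallest p-values were those of Kantr (0.45, SE 0.25, with an adjusted p of 0.816 by edgeR), LOC108349594 (0.12, SE 0.09) and AABR07026984.1 (0.47, SE 0.34). AABR07065531.26 differed by -0.18 (SE 0.09) in hippocampus, -0.08 (SE 0.08) in amygdala, -0.14 (SE 0.08) in anterior cortex and 0.08 (SE 0.09) in cerebellum, with adjusted p of 0.816 or more by edgeR.

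In amygdala the smallest p-values were those of AABR07059159.1 (0.32, SE 0.12), LOC108349594 beside the chromatin remodeller gene Chd2 (0.30, SE 0.12) and AABR07037528.1 (-0.32, SE 0.14), each with an adjusted p of 0.901 by edgeR and overlapping groups. AABR07034669.1 (0.35, SE 0.16), AABR07038849.1 (-0.21, SE 0.11) and LOC102553088 (-0.25, SE 0.14) followed in amygdala at the same adjusted p. In cerebellum AABR07052897.3, the member highest in anterior cortex, had 3.27, 1.52, 2.80 and 2.35 CPM in sham and 1.72, 0.828, 1.16, 1.49 and 1.21 CPM in blast. Its log2 difference was -0.96 (SE 0.27), with an adjusted p of 0.590 by edgeR. The cerebellar AABR07012058.1 had 56.2, 57.4, 46.2, 55.0 and 50.8 CPM in blast against 42.0 to 49.8 CPM in sham, a difference of 0.22 (SE 0.07) with an adjusted p of 0.645. AABR07030473.1 (0.39, SE 0.15), AABR07038849.2 (-0.24, SE 0.10) and AABR07034669.1 (-0.25, SE 0.12) had adjusted p of 0.707, 0.721 and 0.734 in cerebellum. LOC100912578 differed by 2.20 (SE 0.86) in cerebellum with an adjusted p of 0.707 by edgeR. Its blast values there ran from 0.921 to 25.7 CPM and its sham values from 0.749 to 9.75 CPM. With each cerebellar library left out in turn the difference ranged from 1.87 to 3.56, with adjusted p of 0.494 to 0.876 by edgeR. Without sham 13 it was 3.56 (adjusted p 0.778).

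Blast libraries lay entirely above or below sham for 4 members, all in anterior cortex, where blast has 3 libraries. None did so in hippocampus (0.542% of genes above, 0.274% below), amygdala (0.845% above, 0.845% below) or cerebellum (1.09% above, 0.96% below). AABR07038849.1, AC133613.1 and AC141169.5 were higher in every blast library (3 of 75, 4.0%, against 2.23% of all genes), and AABR07017145.2 was lower (1 of 75, 1.33%, against 2.06%). AC133613.1, 200 bases from the growth factor receptor gene Fgfr3 on the same strand, had 3.63, 2.71 and 4.80 CPM in blast and 2.21 to 2.67 CPM in sham, a log2 difference of 0.62 (SE 0.24). AC141169.5 had 17.4, 14.3 and 14.6 CPM in blast and 7.75 to 14.1 CPM in sham, a difference of 0.48 (SE 0.17). AABR07060519.1 overlapped between groups and differed by 0.52 (SE 0.21). AABR07017145.2 had 61.2, 63.8 and 60.9 CPM in blast and 65.0 to 72.0 CPM in sham, a difference of -0.15 (SE 0.07). The adjusted p of AC133613.1, AC141169.5 and AABR07017145.2 was 0.842 by edgeR.

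Whether the blast difference itself varied between regions was tested by the region by treatment terms of an edgeR quasi-likelihood fit over 36 libraries. No member passed an adjusted p of 0.05 (2 of 17120 genes did, 0.0117%), and 9 of 82 members had an unadjusted p under 0.05 (11%, against 5.35% of genes). AC134224.3 had the smallest p, with an adjusted p of 0.767, followed by AABR07026984.1 and AABR07000382.1 with the same adjusted p. The adjacent AC134224.1 and AC134224.2 were also among the 9, so these are not independent counts. In cerebellum each AC134224 gene stood far above the other libraries in blast 1. AABR07026984.1 was low outside cerebellum (sham means of 0.645 to 0.743 CPM), and AABR07000382.1 was near 0 or high by library. In a limma fit with each number averaged over its regions, 5 blast against 5 sham numbers, 0 members passed (0 of 17120 genes, 0.0%) and 4 of 82 had an unadjusted p under 0.05 (4.88%, against 7.19%). AABR07041096.1 led with a log2 difference of -0.21 (SE 0.06) and an adjusted p of 0.632 by limma. In 4 of 5 blast numbers it lay below every sham number. AABR07017145.2 (-0.10, SE 0.04) and AABR07019085.1 (0.27, SE 0.11) followed.

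Genes of the nuclear pathways in which lincRNAs are known to act were examined as lists. No member of the paraspeckle list (15 genes, such as Nono), the speckle and splicing list (16 genes, such as Srrm2) or the Polycomb complex 2 list (10 genes, such as Ezh2) passed the edgeR threshold in any region. In cerebellum the medians were 0.03, 0.03 and 0.01 on the log2 scale, with 13 of 15, 15 of 16 and 5 of 10 genes at positive values, where 7610 of 15225 genes tested were positive. In hippocampus 6 of 15, 4 of 16 and 3 of 10 genes were positive, against 7770 of 15349 genes tested. In amygdala 6 of 15, 4 of 16 and 3 of 10 were positive, against 8098 of 15884. In anterior cortex 7 of 15, 7 of 16 and 4 of 10 were positive, against 7907 of 15765. The list medians in amygdala and anterior cortex lay between -0.05 and -0.01. Genes of a list are not independent, so nothing is read from these counts. Of the list of imprinted protein genes beside Meg3 (Dlk1, Rtl1 and Dio3), 1 gene, Dlk1, was tested in hippocampus (0.73, SE 0.59), amygdala (-0.23, SE 0.37) and anterior cortex (0.27, SE 0.39), and 0 in cerebellum. Among the protein-coding neighbours of the members, 0 of 244 tests over the 4 regions passed the adjusted threshold by edgeR, and 9 had an unadjusted p under 0.05. Of all genes tested, 6.82% in cerebellum, 5.82% in anterior cortex, 5.24% in hippocampus and 5.22% in amygdala had such a p.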

How the data were processed

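The authors deposited 1 table per brain region. Per the file headers its columns hold raw read counts per gene and library, FPKM values, and the authors' log2 fold changes and adjusted p-values for blast against sham. A further 36 columns of values normalized by the authors were not used here. Libraries were made from total RNA with a NEBNext Ultra kit, per the labels' protocols, and the submitters' processing notes list CASAVA. Coordinates hold for an unnamed build: aligner, counter, build and annotation were not given in the sources used here.

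Genes were joined by Ensembl ID. Tests used R 4.3.3 with edgeR 4.0.16 (filterByExpr, TMM, glmQLFit and glmQLFTest), limma 3.58.1 on log2 CPM with a prior count of 2, and DESeq2 1.42.0 as an alternative, each over all genes with Benjamini-Hochberg adjustment. CPM were scaled by TMM over the 36 libraries and the genes in all 4 tables. The fits were also run on simulated counts with the spread of these libraries. Their recovery is not given here, so an absence of calls is not read as an absence of differences. Poisson intervals and floors cover counting error only. SDs are between libraries, and SEs belong to fitted log2 differences.

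Members and gene lists were chosen with earlier results of these data known. The genes named are those with a known symbol, those of smallest p in each comparison, the 10 of highest level per length, the 3 of largest ratio to the next region in each region, and those beside the count threshold. AABR07043098.1, AABR07035273.1, AC111804.2, AABR07002910.1, AABR07026032.1, AABR07050265.1, LOC690414, Rfwd3, LOC103694491 and the members listed by distance to a neighbour were added after their values were seen. The alternatives were other size factors, no filter, a choroid plexus covariate, other count thresholds and leaving out each library.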

Additional observations from a re-analysis of the deposited data

Results flagged for a closer look

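All 82 members were examined in every group of 4 or 5 libraries in which the highest library had at least 1 CPM. Of these groups, 34 (6.46%) held a library far from the others of its group, where chance gives about 1 in 20. That share is close to chance, and the groups share libraries and adjacent genes, so nothing is read from the count. Each value below is set against the range of the other libraries of the same region and treatment.

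In cerebellum blast 1, AABR07041411.1 had 18.25 CPM against 8.675 to 11.03 and AABR07051787.1 had 4.382 CPM against 11.12 to 11.62. There, AC134224.1 had 2212 CPM against 269.4 to 491.7 and AC134224.2 had 891.3 CPM against 88.28 to 151.3. There, AC134224.3 had 1038 CPM against 139.9 to 256.9. In amygdala blast 6, AABR07004232.2 had 1.632 CPM against 7.653 to 9.243 and AABR07026032.1 had 26.94 CPM against 9.256 to 13.81. There, LOC102549726 had 25.61 CPM against 20.71 to 22.09. In amygdala sham 18, AABR07002910.1 had 30.7 CPM against 24.73 to 25.13 and AABR07019086.1 had 7.564 CPM against 3.191 to 3.268. There, LOC100909912 had 10.42 CPM against 8.84 to 9.083. In hippocampus sham 12, AABR07037528.1 had 5.143 CPM against 8.258 to 9.498 and AC133613.1 had 7.408 CPM against 5.465 to 6.02. There, LOC102549506 had 51.71 CPM against 59.08 to 60.8. In anterior cortex sham 12, AABR07002969.1 had 14.94 CPM against 12.2 to 12.7 and Kantr had 5.315 CPM against 2.475 to 2.898. In amygdala blast 2, LOC100912578 had 24.1 CPM against 1.978 to 7.912 and LOC103694491 had 21.82 CPM against 14.95 to 16.63. In cerebellum sham 16, AABR07073453.1 had 8.409 CPM against 7.036 to 7.114 and LOC690414 had 17.68 CPM against 12.97 to 13.64. In hippocampus blast 6, AABR07017145.2 had 62.27 CPM against 84.9 to 93.71 and AABR07024542.1 had 47.43 CPM against 91.9 to 106.9. In anterior cortex sham 10, AABR07019086.1 had 2.288 CPM against 4.518 to 5.305. In anterior cortex sham 13, Rfwd3 had 5.309 CPM against 7.371 to 8.026. In amygdala blast 1, AABR07051787.1 had 4.123 CPM against 7.912 to 9.451. In cerebellum blast 9, AABR07012475.2 had 5.927 CPM against 7.456 to 8.043. In cerebellum sham 13, AABR07021547.1 had 24.86 CPM against 20.81 to 21.2. In cerebellum sham 18, AABR07000382.1 had 15.41 CPM against 0.1532 to 0.2695. In hippocampus blast 1, AABR07050265.1 had 3.919 CPM against 2.919 to 3.196. In hippocampus blast 2, LOC100912578 had 25.41 CPM against 1.826 to 8.191. In hippocampus blast 9, AABR07019085.1 had 45.63 CPM against 13.48 to 21.59. In hippocampus sham 10, AABR07050265.1 had 1.611 CPM against 2.914 to 3.397. In hippocampus sham 16, AABR07069227.1 had 4.979 CPM against 7.143 to 7.502. In hippocampus sham 18, AABR07017145.2 had 70.23 CPM against 91.35 to 99.46.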

How the results depend on the processing

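The rule found 152 members at a mean count threshold of 50, 48 at 200, and 39 when the threshold of 100 had to be met in all 4 tables. No member passed the adjusted threshold in any regional comparison with DESeq2, other size factors, no low-count filter, a choroid plexus covariate or any 1 library left out, while the genes called over the whole table ranged from 0 to 32. With the replicate number as a block, 0 members and 0 genes were called for the difference between regions, and a voom fit with the number as a correlation (0.0281) called 0 members and 10 genes. Deviations of 48 same-numbered pairs of libraries correlated from -0.131 to 0.17, 17 of them above 0.1. Their median was 0.087, against -0.022 for pairs of other numbers. These correlations do not settle whether a number marks an animal. The main fit of the difference between regions had no block for the number and took the libraries as independent, while the limma fit took 1 value per number. With each library left out, Kantr in amygdala ranged from -0.0522 to 0.1754, Kantr in anterior cortex from -0.3808 to 0.1075 and Tug1 in cerebellum from -0.01809 to 0.03925 on the log2 scale, so each changed sign. LOC100912578, AC134224.1 and AC134224.2 also changed sign in hippocampus and amygdala. So did AABR07052897.3 in hippocampus and anterior cortex, and AABR07041096.1 in anterior cortex. AC134224.3 kept its sign in every region. Without TMM, LOC102553190 in cerebellum was 27.1 CPM, and 72 of 82 members kept their highest region.

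Depth limits the members near 0: a count of 0 over a sham group was read as at most 3 counts, which are 0.0306 to 0.0417 CPM. Anterior cortex had 3 blast libraries. The tables name most members by contig only, no genome was used here, and the counting's treatment of strand is not given, so reads of overlapping, adjacent or near-identical genes cannot be told apart from those of the members. Hippocampus blast 6 and amygdala blast 6 stood apart in cell type markers, as did amygdala blast 9 and hippocampus blast 2 in choroid plexus markers, and the part this played in the results was not tested beyond leaving them out.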
